A study of Oryctolagus cuniculus with 3 samples.

Results

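The 47 genes described here encode the antioxidant and glutathione enzymes of the rabbit and the proteins named after them. They were chosen by symbol: superoxide dismutases and catalase, glutathione peroxidases, peroxiredoxins, thioredoxins and thioredoxin-like proteins, glutaredoxins, methionine sulphoxide reductases, glutathione synthesis, glutathione transferases, KEAP1 and the NFE2-like factors, haem oxygenases, quinone reductases, selenoproteins named SELENO and the apoptosis-inducing factor family. They are 47 of the 6507 genes with a symbol in the deposited value table, and 122 of its 22839 probes. Each gene is given by its brightest probe, the one with the highest mean log2 processed signal in the scanner files of replicates 1 and 3. A symbol is a loose guide to function here: TXNL4A and TXNL4B belong to the splicing machinery, TXNDC9 is a cofactor of a chaperonin, and SELENOI makes a membrane phospholipid.

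Morulae were recovered on day 3 after artificial insemination, slow-frozen or vitrified, warmed and transferred to recipient does, and collected as embryos on day 6, 3 days after transfer. For vitrification, 2 min in 12.5% dimethyl sulphoxide with 12.5% ethylene glycol was followed by 30 s in 20% of each, and 0.25 ml straws then went into liquid nitrogen. The sources used here do not give the slow-freezing medium or rate. RNA of frozen and of vitrified embryos was compared directly on 3 Agilent 2-colour arrays, so each array gives 1 ratio per probe, and both arms had been cryopreserved, since no fresh embryo is part of the comparison. They do not say how many embryos were pooled in a sample either.

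Oxygen metabolism makes superoxide, which superoxide dismutases turn into hydrogen peroxide. Catalase, glutathione peroxidases and peroxiredoxins remove the peroxide, and the last 2 families are recharged by glutathione and by thioredoxin. Glutathione is a tripeptide of glutamate, cysteine and glycine; GCLC and GCLM form the enzyme of its first step and GSS that of its second. KEAP1 holds the transcription factor NRF2 (NFE2L2) for degradation, and oxidants that modify KEAP1 let NRF2 reach the genes of many of these enzymes. Mammalian embryos meet low oxygen in the tract and hold a store of glutathione from the oocyte, and cryopreservation is a setting in which oxidants are often studied.

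The probes that gave these values are 60 bases long, and 30 bases of each are shown for the genes on which the results turn, 5′ to 3′ as the scanner files give them. TXNIP has 2 probes that share no stretch and that gave unlike values, and SELENOK has 3 separate stretches, of which the first is covered by 5 overlapping probes. Capitals in the first SELENOK pair mark the 20 bases that both lines share, and capitals in the third mark a run of 21 alternating A and C, a sequence that recurs across genomes. The number after each name is the probe's start position as listed in the scanner files.
KEAP1 probe 1869, first 30 bases: gtcgccgtcaccatggaaccctgccggaag
CAT probe 1013, first 30 bases: cagttaattattttgctgagattgaacagt
MSRB1 probe 308, first 30 bases: tcgctgaaattcatccctaaaggcgaggac
AIFM1 probe 1805, first 30 bases: atcattaaggatggcgagcaacacgaagac
TXNIP probe 1246, first 30 bases: atgagttggatagatatgaacatcccagat
TXNIP probe 1384, first 30 bases: attttcatgtatgctcctgagttcaagttc
SELENOK probe 126, first 30 bases: ttgcttcagcAAGATGTGAAAAGAGGAAGA
SELENOK probe 136, first 30 bases: AAGATGTGAAAAGAGGAAGAggctacagaa
SELENOK probe 561, last 30 bases: tatatacttACACACACACACACACACACA
SELENOK probe 632, first 30 bases: tcacccaaaaacacctcggaatatgaagaa

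The 3 arrays did not run together. Over all 22839 probes the log2 ratios of replicates 1 and 2 correlated at -0.36, those of replicates 1 and 3 at -0.01 and those of replicates 2 and 3 at 0.48, over probes that share their arrays. Replicate 2 is the dye swap, and the direction of its column is likely, not stated, so the mean with its sign turned is also given for the genes on which the results turn. With the mean over arrays tested against 0 by limma, 0 of 22839 probes (0.0%) passed an adjusted p of 0.05, although 1020 had an unadjusted p under 0.05. Among the 47 genes TXNIP had the smallest adjusted p, 0.907. Without replicate 1, 796 probes passed in limma. Of the 47 genes, 1 was among them: NQO1, whose probe is dim, at -0.81 with an adjusted limma p of 0.0216. With array weights that rest almost wholly on replicate 3, 8539 probes passed, 19 of the 47 genes among them. On the 3 arrays together no gene is called changed, and the values below describe these arrays. Markers of the blastocyst were measured on the arrays, 11 of the trophoblast, 13 of the hypoblast and 10 of the epiblast list. The hypoblast list had medians of -0.06, -0.51 and -0.80 on replicates 1, 2 and 3, with 11 of 13 means below 0; the median of the means was -0.55, but 0.03 with the sign of replicate 2 turned. The epiblast list had medians of -0.41, 0.12 and -0.20, with 6 of 10 means below 0 and 4 above. Its lowest mean was that of POU5F1, the pluripotency factor, at -0.96, and its highest that of ESRRB at 0.52. The trophoblast list had medians of -0.16, 0.24 and 0.05, with 5 of 11 means below 0 and 6 above. The part of these lists in the ratios below was not tested. In such whole-embryo RNA, fewer cells of a type and less RNA per cell cannot be told apart.

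As a group, the 47 genes had a median near 0. This median log2 ratio was 0.03, 0.02 and 0.01 on replicates 1, 2 and 3, beside -0.08, 0.04 and 0.02 over all 6507 genes. The means ran from -0.47 (CAT) to 0.53 (TXNIP), 24 above and 23 below 0, and 37 of the 47 (78.7%) lay within 0.2 of 0, near the 74.7% of all genes that did. On all 3 arrays 19 of the 47 genes kept 1 sign, beside 22.4% of all genes. Of these, 12 lay above 0, beside 10.7% of all genes, and 7 below 0, beside 11.6%. None of the 19 reached a mean of 1.5-fold, which 1.54% of all genes did with 1 sign on all 3 arrays. At an unadjusted p under 0.05 there were 5 of the 47 genes, beside 4.2% of all genes: 3 higher in frozen embryos, beside 1.43%, and 2 lower, beside 2.77%. With the sign of replicate 2 turned, 6 of the 47 kept 1 sign, beside 26.4% of all genes. The median SD over arrays was 0.19 for the 47 genes and 0.26 for all genes.

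**Figure D1:**
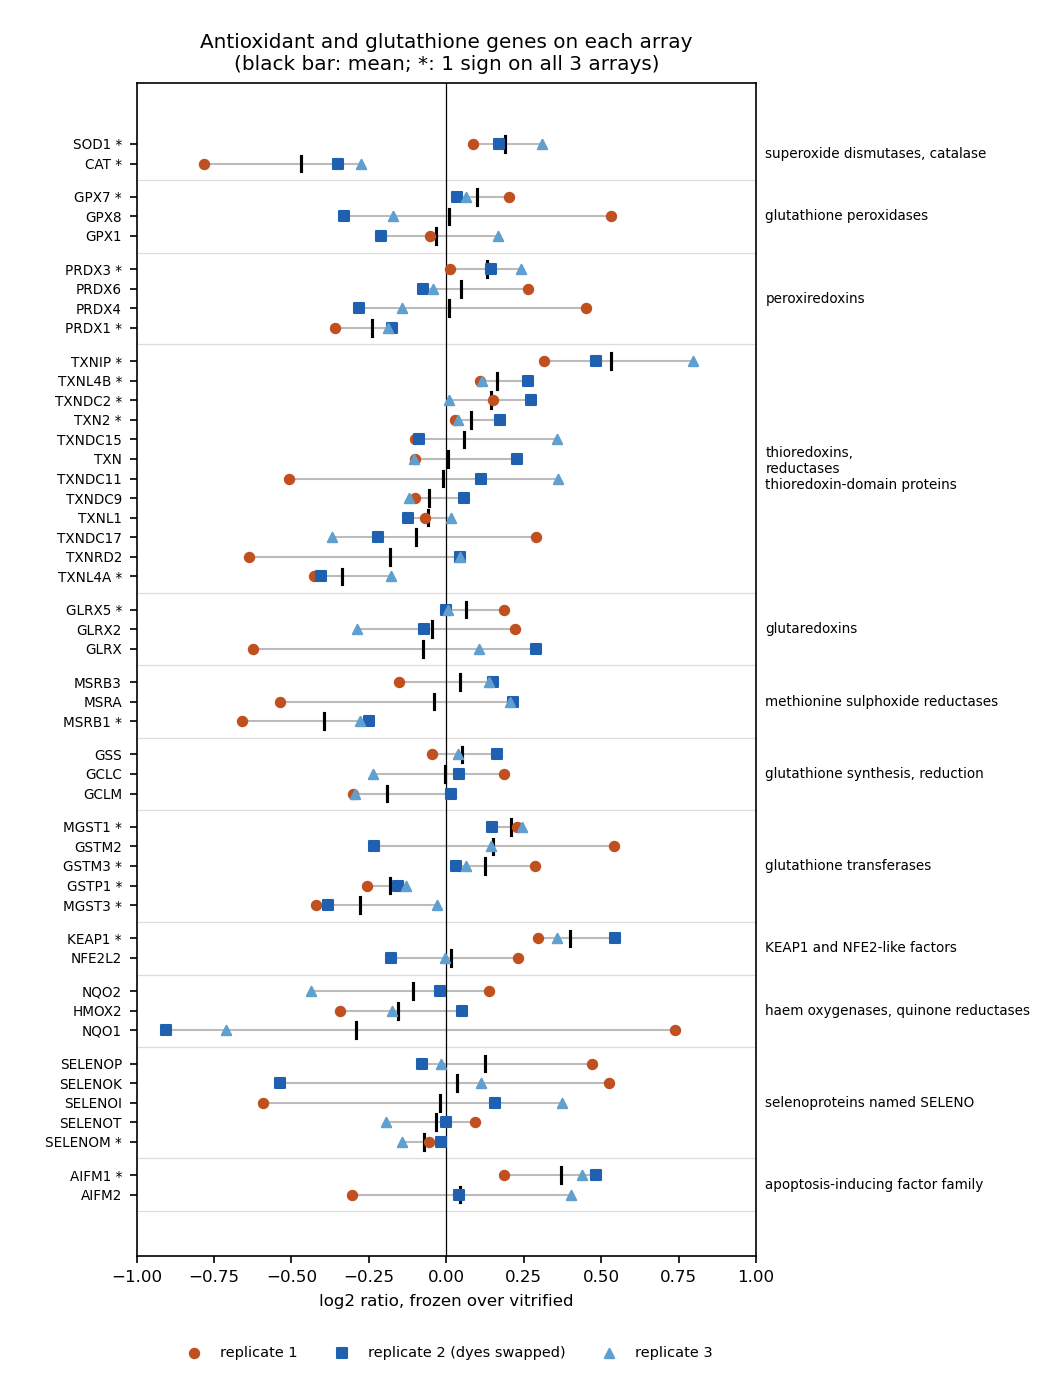
Log2 ratio of frozen over vitrified embryos (x axis) for each of the 47 genes, grouped by role; points are the 3 arrays, black bars their mean, and an asterisk marks 1 sign on all 3 arrays. Means lie between -0.47 and 0.53, and for NQO1 replicate 1 lies on the other side of 0 from replicates 2 and 3.

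KEAP1, the sensor that binds NRF2, was higher in frozen embryos on each array. The log2 ratio of its single probe was 0.30, 0.55 and 0.36 on replicates 1, 2 and 3. The 3 arrays lay within 0.3 of each other and all above 0, with replicate 2 the highest. The mean was 0.40 ± 0.13 (SD, n = 3), a 1.32-fold ratio, with a limma 95% interval of 0.06 to 0.74, an unadjusted p of 0.0278 and an adjusted p of 1.00. On replicate 1 its processed intensity was 3138 in frozen and 2555 in vitrified embryos, and on replicate 3 it was 3224 and 2516. The mean of KEAP1 was 0.04 with the sign of replicate 2 turned.

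NFE2L2, the transcription factor NRF2 itself, had 0.23, -0.18 and -0.0044 on replicates 1, 2 and 3. The arrays fell on both sides of 0, with a mean of 0.02 ± 0.20. Its other probe, on a separate stretch, had a mean of -0.02. NQO1, a quinone reductase often used as a readout of NRF2, had the widest spread of the 47 genes, with 0.74, -0.91 and -0.71. Replicate 1 was well above 0 and the others well below, and no array lay near the mean of -0.29 ± 0.90, which was 0.31 with replicate 2 turned. The probe is dim, with a processed intensity of 95.7 in frozen and 57.3 in vitrified embryos on replicate 1. On replicate 3 it was 62.9 and 103. NQO1 has 2 probes that start 1 base apart, and the other had a mean of -0.21. NQO2, a related quinone reductase, had a mean of -0.11, and HMOX2, the constitutive haem oxygenase, had -0.16; neither kept 1 sign.

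Some blood genes had the pattern of NQO1, as did some genes of the hypoblast list. The beta-globin gene HBB2 had log2 ratios of 2.62, -3.77 and -3.59 on the same arrays (mean -1.58, or 0.93 with replicate 2 turned), and ALAS2, the first enzyme of haem synthesis in red cells, had 0.34, -1.73 and -1.21. The other 3 measured red cell markers did not. TFRC had -0.90, -0.0050 and 0.16, EPOR had -0.13, 0.08 and 0.59, and HBQ1 had 0.42, -0.12 and 0.04. Summed over the 5 measured of the 22 markers of the red blood cell list, the processed intensity was 30155 in frozen and 5563 in vitrified embryos on replicate 1, and 4797 and 48985 on replicate 3. Such a sum is weighted to the brightest probes. Of the 5, only HBB2 had ratios as large as those of the sum, so the sum does not describe the whole list. None of the 5 markers was at 0 in any channel, since every probe of the table was well above background. Of the hypoblast list, RBP4 had 0.66, -1.98 and -1.76 on the same arrays, and DKK1 had 0.59, -1.58 and -1.37. APOA1 had 0.51, -1.38 and -2.20, and COL4A1 had 0.30, -0.91 and -1.06. The other measured hypoblast markers did not have this pattern. The part of blood or hypoblast genes in the ratio of NQO1 was not tested. Among the 47 genes, 17 had replicate 1 on one side of 0 and replicates 2 and 3 on the other, beside 39.6% of all genes: 9 with replicate 1 above and 8 with it below. Singled out after their values were seen, those with replicate 1 above include GPX8 (0.53, -0.33 and -0.17), PRDX4 (0.45, -0.28 and -0.14) and SELENOP (0.47, -0.08 and -0.02), and those with it below include GLRX (-0.62, 0.29 and 0.11), MSRA (-0.54, 0.22 and 0.20) and SELENOI (-0.59, 0.16 and 0.37). Turning replicate 2 moved the mean of GPX8 from 0.01 to 0.23 and that of PRDX4 from 0.01 to 0.20. Across the 47 genes the ratios of replicates 2 and 3 correlated at 0.64 and those of replicates 1 and 2 at -0.15, as a description over genes that share 3 arrays.

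**Figure D2:**
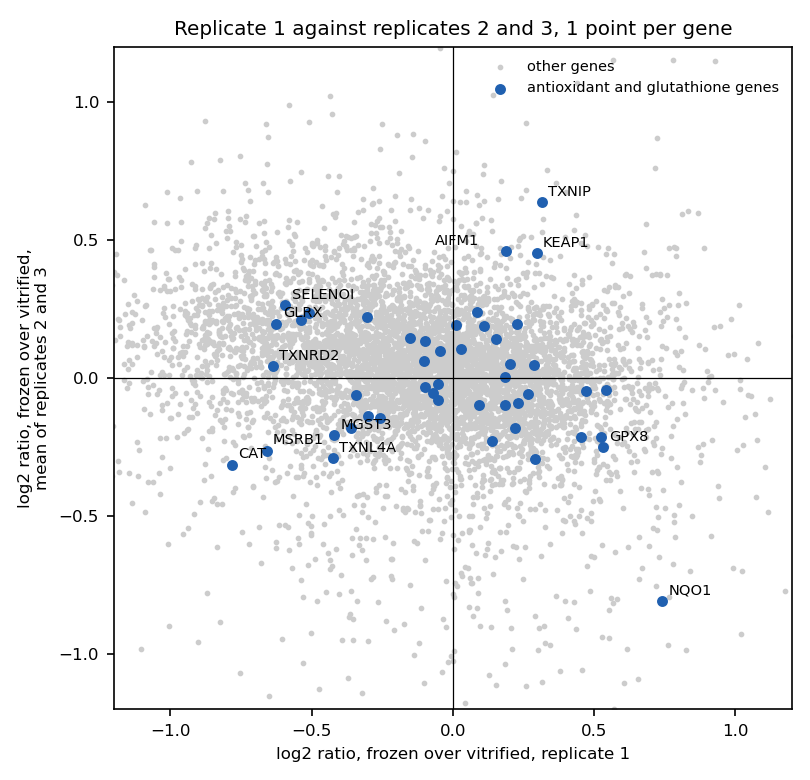
Log2 ratio of frozen over vitrified embryos on replicate 1 (x axis) against the mean of replicates 2 and 3 (y axis), 1 point per gene, with the 47 genes in blue and the other genes in grey; 125 other genes lie outside the axes. TXNIP, KEAP1 and AIFM1 lie above 0 on both axes, CAT, MSRB1 and TXNL4A below 0 on both, and NQO1 at 0.74 and -0.81.

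Catalase, which splits hydrogen peroxide without drawing on glutathione or thioredoxin, was lower in frozen embryos on each array. CAT had log2 ratios of -0.78, -0.35 and -0.28 on replicates 1, 2 and 3. Replicate 1 was the lowest, and replicates 2 and 3 lay close together. The mean was -0.47 ± 0.27, a 1.39-fold ratio, with a limma 95% interval of -0.87 to -0.07, an unadjusted p of 0.0283 and an adjusted p of 1.00. All 3 of its probes, on 2 separate stretches, had means below 0, from -0.47 to -0.31. The probe is dim, with a processed intensity of 104 in frozen and 180 in vitrified embryos on replicate 1 and of 86.7 and 105 on replicate 3, and after another background correction and loess on these 2 arrays the mean was -0.14. Turning the sign of replicate 2 gave -0.24.

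SOD1, the copper-zinc superoxide dismutase of the cytosol, had 0.09, 0.17 and 0.31, with a mean of 0.19 ± 0.11 and an unadjusted p of 0.209. All arrays lay above 0 by little, and the mean was 0.08 with replicate 2 turned and 0.39 after another background correction and loess on replicates 1 and 3. Of its 10 probes, 8 carry a transcript that the current annotation lists under another locus without a symbol, and their means ran from 0.14 to 0.19; the other 2 had -0.0042 and 0.07. SOD1 is uncertain for that reason. Probes described as manganese superoxide dismutase, the mitochondrial enzyme, carry no symbol in the current table and are not among the 47 genes. The brightest of the 5 had -0.02, 0.12 and 0.20.

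The glutathione peroxidases and peroxiredoxins, which remove peroxides, lay near 0. GPX1, the selenium-dependent enzyme of the cytosol, had -0.05, -0.21 and 0.17, with a mean of -0.03 ± 0.19. Its arrays fell on both sides of 0. GPX7, a peroxidase of the endoplasmic reticulum, lay above 0 on all arrays with a mean of 0.10, and GPX8, of the same compartment, had a mean of 0.01. PRDX1, the abundant cytosolic peroxiredoxin, had -0.36, -0.17 and -0.19, with a mean of -0.24 ± 0.10 and an unadjusted p of 0.121. It was lower in frozen embryos on each array, and replicate 1 was again the lowest. Its mean was -0.12 with replicate 2 turned and -0.08 after normexp and loess on replicates 1 and 3. PRDX3, the mitochondrial peroxiredoxin, lay above 0 on each array with a mean of 0.13. PRDX4, of the secretory pathway, had 0.01 and PRDX6, which also acts on phospholipids, had 0.05. Hence 1 of 3 peroxidases and 2 of 4 peroxiredoxins kept 1 sign, beside 22.4% of all genes, PRDX1 below 0 and the others above.

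TXNIP, the protein that binds thioredoxin and blocks it, had the highest mean of the 47 genes. Its brightest probe had 0.32, 0.48 and 0.80 on replicates 1, 2 and 3. All arrays lay above 0, with replicate 3 the highest. The mean was 0.53 ± 0.24, a 1.45-fold ratio, with a limma 95% interval of 0.15 to 0.91, an unadjusted p of 0.0154 and an adjusted p of 0.907. The other probe, on a separate stretch of the transcript, had -0.32, 0.44 and 0.09. It fell below 0 on replicate 1, and its mean was 0.07, so the mean over both probes was 0.30. The brightest probe is dim, at 61.4 in frozen and 49.3 in vitrified embryos on replicate 1 and at 128 and 74.0 on replicate 3. Turning replicate 2 brought it to 0.21, and another background correction and loess on replicates 1 and 3 gave 0.23.

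TXN, thioredoxin, had -0.10, 0.23 and -0.11, with a mean of 0.01 ± 0.19. Replicate 2 lay above 0 and the others below. TXN2, the thioredoxin of mitochondria, lay above 0 on all arrays with a mean of 0.08, and TXNRD2, the mitochondrial reductase that recharges it, had -0.64, 0.04 and 0.05. Only replicate 1 of TXNRD2 stood away from 0. TXNL1 had -0.06, TXNDC9 -0.05, TXNDC11 -0.01, TXNDC15 0.06 and TXNDC17 -0.10 as means, and none of these kept 1 sign. TXNDC2, known from sperm, had 0.14 and TXNL4B 0.16, both with 1 sign. TXNL4A, a small protein of the spliceosome, was the lowest of the group, with -0.43, -0.40 and -0.18. Replicates 1 and 2 were alike and replicate 3 nearer 0, with a mean of -0.34 ± 0.14 and an unadjusted p of 0.0516; its 5 overlapping probes ran from -0.36 to -0.32. The mean of TXNL4A was -0.07 with the sign of replicate 2 turned. Of the 12 thioredoxin genes, 4 lay above 0 on all arrays, beside 10.7% of all genes, and 1 below, beside 11.6%. The other 7 fell on both sides. Of those above 0, the means of TXN2, TXNDC2 and TXNL4B, but not TXNIP, crossed 0 with the sign of replicate 2 turned.

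**Figure D3:**
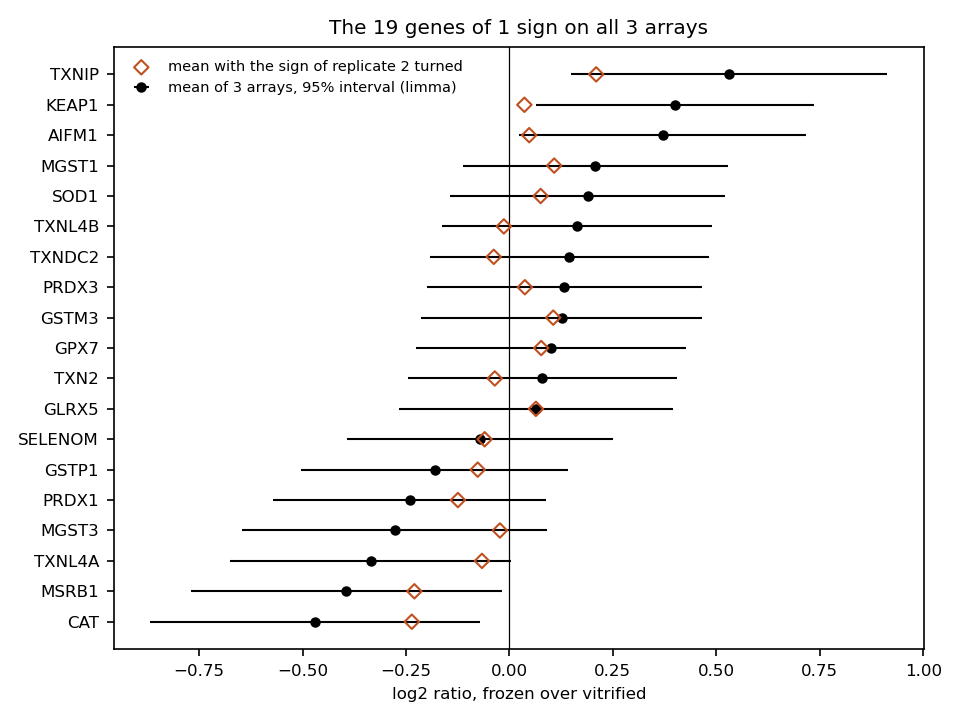
Mean log2 ratio of frozen over vitrified embryos (x axis) of the 19 genes with 1 sign on all 3 arrays; black points are means with limma's 95% interval, and open diamonds are means with the sign of replicate 2 turned. The intervals of TXNIP, KEAP1, AIFM1, MSRB1 and CAT leave out 0, and the diamonds of TXN2, TXNDC2 and TXNL4B lie across 0 from their means.

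MSRB1, a selenoprotein that repairs oxidised methionine in proteins, was lower in frozen embryos on each array. Its single probe had -0.66, -0.25 and -0.28. Replicate 1 was the lowest, and replicates 2 and 3 were alike. The mean was -0.40 ± 0.23, a 1.32-fold ratio, with a limma 95% interval of -0.77 to -0.02, an unadjusted p of 0.0424 and an adjusted p of 1.00. The mean of MSRB1 was -0.23 with the sign of replicate 2 turned. MSRA, which repairs the other stereoisomer of the oxidised residue, had a mean of -0.04 and MSRB3 had 0.05, each with replicate 1 below 0 and the other arrays above. The glutaredoxins, which use glutathione to reduce mixed disulphides, had means of -0.08 (GLRX), -0.05 (GLRX2) and 0.06 (GLRX5).

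Glutathione synthesis gave no common direction. GCLC, the catalytic subunit of the first enzyme, had 0.19, 0.04 and -0.24, with a mean of -0.0041 ± 0.22. The arrays straddled 0. GCLM, the regulatory subunit, had -0.30, 0.02 and -0.29, with a mean of -0.19 ± 0.18 and an unadjusted p of 0.227. Replicates 1 and 3 were lower and replicate 2 lay at 0. GSS, the second enzyme, had -0.05, 0.16 and 0.04, with a mean of 0.05 ± 0.11. None of these 3 kept 1 sign.

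Of the 5 glutathione transferases, which attach glutathione to electrophiles, 2 lay above 0 on all arrays, beside 10.7% of all genes. Below 0 on all arrays were 2, beside 11.6%. GSTP1, the pi-class enzyme, had -0.26, -0.16 and -0.13, with a mean of -0.18 ± 0.07 and an unadjusted p of 0.213. It was lower on each array by a similar amount, with a mean of -0.08 once replicate 2 was turned. MGST1, the microsomal transferase, had a mean of 0.21 ± 0.05, the smallest SD among the 47 genes, and its 5 overlapping probes ran from 0.18 to 0.21. MGST3 had -0.28, GSTM3 0.13 and GSTM2 0.15, the last with replicate 2 below 0. Turned, they had -0.02, 0.11 and 0.31. Other transferases carry a description in the scanner files but no symbol in the current table. Those described as kappa 1 had means of 0.08 and 0.12, mu 1 had -0.13, and the brightest probe of mu 7-like had -0.15. None of these kept 1 sign. The 5 overlapping probes described as omega 1, singled out after their values were seen, had means from 1.01 to 1.09. On replicates 1, 2 and 3 the brightest had 0.50, 1.60 and 1.18. All arrays lay above 0 and replicate 1 was the lowest; the unadjusted p was 0.0043 and the adjusted p 0.809 in limma, and with the sign of replicate 2 turned the mean was 0.03. The 5 described as omega 2 had 0.41 to 0.59, and the brightest of them 0.22 with replicate 2 turned. The single probes described as alpha I and Yc-like had means of -0.44 and -0.51, and both lay above 0 on replicate 1 and below on the others. The single probe of heme oxygenase 1, the inducible enzyme, also without a current symbol, had -0.08, -0.64 and -0.43. It lay below 0 on all arrays, with a mean of -0.38 ± 0.29 and an unadjusted p of 0.0590, and with the sign of replicate 2 turned the mean was 0.05.

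The apoptosis-inducing factor AIFM1, a flavoprotein of mitochondria that helps build the respiratory chain and can act in cell death, was higher in frozen embryos on each array. It had 0.19, 0.48 and 0.44 on replicates 1, 2 and 3. Replicate 1 was the lowest and the others were alike. The mean was 0.37 ± 0.16, a 1.29-fold ratio, with a limma 95% interval of 0.02 to 0.72, an unadjusted p of 0.0404 and an adjusted p of 1.00. Its probe is bright, at 11321 in frozen and 9943 in vitrified embryos on replicate 1 and at 9817 and 7240 on replicate 3. Turning the sign of replicate 2 gave a mean of 0.05, and normexp and loess on replicates 1 and 3 gave 0.24. AIFM2, which reduces ubiquinone at membranes, had a mean of 0.05 and both signs.

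Selenoproteins carry selenium as selenocysteine, and 8 of the 47 genes encode one: GPX1, MSRB1, TXNRD2, SELENOI, SELENOK, SELENOM, SELENOP and SELENOT. Their median was -0.05, -0.05 and 0.01 on replicates 1, 2 and 3. Of the 8, 2 lay below 0 on all arrays (MSRB1 and SELENOM), beside 11.6% of all genes, and 0 above, beside 10.7%. SELENOP, which carries selenium between tissues, had a mean of 0.13, SELENOT -0.03 and SELENOM -0.07. SELENOK, a membrane protein of the endoplasmic reticulum, read differently by stretch. Its brightest probe had 0.53, -0.54 and 0.11, and the probe that ends in the run of alternating A and C had 0.42, -0.52 and -0.06. The 5 overlapping probes nearer the start of the transcript averaged -0.25, -0.29 and -0.32. Those 5 lay below 0 on all arrays, with means from -0.29 to -0.28, whereas the others changed sign between arrays. With replicate 2 turned, the mean of the brightest probe went from 0.03 to 0.39, the 1 case of the 47 with an unadjusted limma p under 0.05 (0.0424) at that setting, beside 5.04% of all genes. Grouped by place in the cell after their values were seen, 4 of 6 genes of mitochondria lay above 0 on all arrays, beside 10.7% of all genes. These were AIFM1, PRDX3, TXN2 and GLRX5, and the median of the 6 was 0.07. Several of their values lay close to 0. GLRX5 had 0.0003 and 0.0064 on replicates 2 and 3, PRDX3 0.01 on replicate 1, and TXN2 0.03 and 0.04 on replicates 1 and 3. Once replicate 2 was turned, TXN2 had -0.04 and AIFM1 0.05. Of 7 genes listed for the endoplasmic reticulum, 1 lay above 0 on all arrays (GPX7), with a median of 0.01. That list leaves out the microsomal transferases MGST1, above 0 on all arrays with a mean of 0.21, and MGST3, below 0 on all. The count therefore depends on the list.

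Of the 47 genes, 20 have 1 probe and 13 have several that overlap, which are no independent measure. The other 14 have probes on separate stretches, sharing fewer than 30 bases. In 5 of the 14 the stretches had means of both signs, and in 2, TXNIP and SELENOK, the stretch means differed by more than 0.2. The median difference between stretches was 0.07, smaller than the median SD over arrays.

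**Figure D4:**
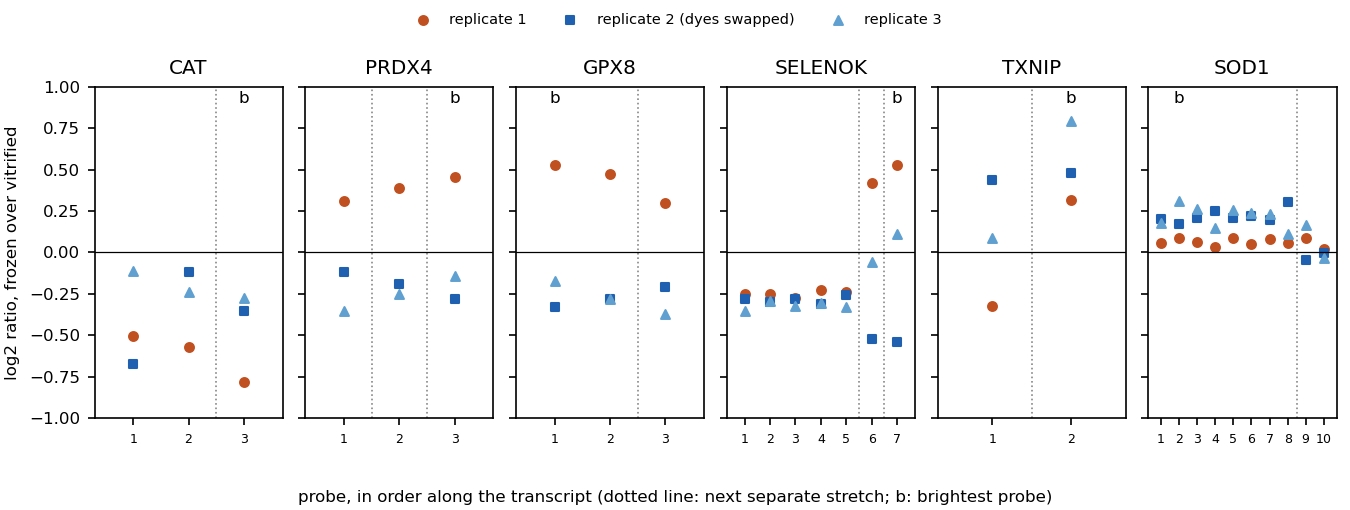
Log2 ratio of frozen over vitrified embryos (y axis) of every probe of 6 genes, in order along the transcript (x axis); points are the 3 arrays, dotted lines part separate stretches, and b marks the brightest probe. The probes of PRDX4 and GPX8 repeat 1 pattern over arrays, while those of SELENOK and TXNIP differ by stretch.

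Genes that supply or use glutathione, or supply the reducing power behind it, were read from lists that share none of the 47. The glutathione list joins supply with breakdown and use, so its counts are not of supply alone. These lists were written with earlier results of these data known, so their counts are a description and no independent support. Of 22 measured genes of glutathione supply and use, 11 lay below 0 on all arrays, beside 11.6% of all genes, and 0 above. At an unadjusted p under 0.05 there were 8, all lower in frozen embryos, beside 2.77% of all genes. The list medians were -0.36, -0.14 and -0.47 by array, and the median of the means was -0.28, or -0.17 with replicate 2 turned. PHGDH, the first enzyme of serine synthesis, whose product feeds glycine and cysteine, had -1.69, -2.01 and -2.05, PSAT1, the next enzyme, had a mean of -1.68, and CHAC1, which degrades glutathione, had -1.23. No adjusted p passed, the smallest being 0.550 for PHGDH in limma, and with the sign of replicate 2 turned the means were -0.58, -0.40 and -0.70. Of 16 measured genes of NADPH supply, 1 had an unadjusted p under 0.05, ME1 (malic enzyme) at -0.47, and the list medians of -0.45, 0.19 and -0.03 changed sign between arrays.

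Of 16 measured partners and other targets of NRF2, 0 had an unadjusted p under 0.05, and the list medians were -0.20, 0.14 and 0.11. FTL, the ferritin light chain, had -0.26, -0.26 and -0.28, FTH1, the heavy chain, had a mean of -0.06, and CBR1, a carbonyl reductase, had -0.24. The machinery that makes selenocysteine had 0 of 8 genes at that level, with SEPHS1 at -0.26, the oxidant sources 0 of 11, and the repair of oxidised DNA and lipid 0 of 10, with NUDT1, which removes oxidised nucleotides, at 0.32.

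**Figure D5:**
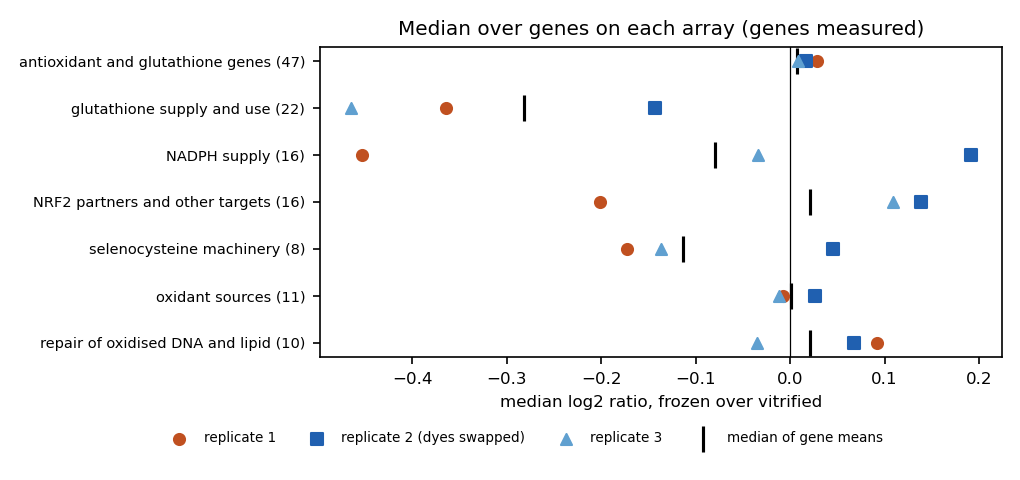
Median log2 ratio of frozen over vitrified embryos (x axis) over the 47 genes and over 6 related lists, with the number of measured genes; points are the 3 arrays and black bars the median of the gene means. The 47 genes lie within 0.03 of 0 on each array, and glutathione supply and use lies below 0 on each.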

How the data were processed

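The authors deposited a value table of the 3 arrays, and scanner output of replicates 1 and 3. Processed spot intensities per channel are, per the file headers, background-subtracted and dye-normalized by Agilent Feature Extraction 10.10.1.1 (version per the submitters' processing notes), and the deposited log10 ratio sets red over green. Per the labels, frozen embryos were in Cy5 on replicates 1 and 3 and in Cy3 on replicate 2. The deposited value table is in log2, though no source states its scale, centring or direction; the columns of replicates 1 and 3 equalled the log2 ratio of processed red over green, with largest differences of 3e-06 and 2e-06, so they are frozen over vitrified. Column medians were -0.015, 0.021 and 0.017. The column of replicate 2 was taken as already turned, since its 10 spike-in probes correlated at -1.00 with those of the other arrays; that direction is likely, not stated.

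All 22839 non-control probes of the table were well above background and 0 were saturated in both scanner files. Probes were named by RefSeq transcript (8381), gene identifier (5294), description (173) or symbol (92) through the current RefSeq table of the rabbit, and 8899 had no name. Ratios were tested against 0 over 3 arrays by lmFit and eBayes of limma 3.58.1 (R 4.3.3); Benjamini-Hochberg adjustment ran over all probes, with a threshold of 0.05; Python 3.11.15 joined the tables. The test was tried on simulated data. Each array is 1 replicate, called biological in the labels, on its own slide, so their number limits the precision, and a sign-flip test of 3 arrays was not run. SDs are over n = 3 arrays.

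The 47 genes, their roles and the related lists were chosen with earlier results of these data known. Values on every array are given for genes of 1 sign with a mean of at least 0.3 in size, for genes at an unadjusted p under 0.05 and for a fixed set of core enzymes; of each related list up to 3 genes with the smallest unadjusted p are named, with PHGDH, CHAC1, FTH1 and FTL. Tried as alternatives were the turned sign of replicate 2, each array left out, a trended robust prior, the dye as a covariate, median centring, array weights, a filter on the dimmest 25% of probes, the mean over a gene's probes, and normexp (offset 50) with loess on the scanner files. Protein and promoter sequences were not used here. Some genes that the naming rule takes are left out of the text.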

Additional observations from a re-analysis of the deposited data

Results flagged for a closer look

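Of 54 genes of these families with a probe on the array, 7 have probes only outside the value table, and 4 of these had signal well above background in at least 1 of the 4 channels of the 2 scanner files. GPX5 and GPX6, peroxidases related to GPX1, were well above background in 3 of 4 channels, the exception being vitrified embryos on replicate 1; the GPX6 intensity was 15.8 and 29.6 (frozen and vitrified) on replicate 1 and 59.3 and 65.9 on replicate 3. SELENOS and TXNRD3 were well above background in 1 of 4 channels, frozen embryos on replicate 3. GSTT4, SOD3 and TXNDC16 were well above background in none. No rule for outlying arrays was applied to the 3 arrays, though their correlations, array weights and fits with each array left out are given.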

How the results depend on the processing

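Of the 19 genes of 1 sign, TXN2, TXNDC2 and TXNL4B lost the sign of their mean with the sign of replicate 2 turned. TXN2 also lost it with normexp and loess on the scanner files. The others kept it under each alternative run, and 3 of the 19 fell out of the filter on dim probes. Only the turned sign, centring, the mean over probes and the scanner files could have changed these signs. The other alternatives keep or average ratios of 1 sign, so their outcome was fixed in advance. Over all 47 genes the sign was kept by 36 with replicate 2 turned, by 34 with array weights, by 35 to 42 with an array left out and by 38 to 47 under the other alternatives on 3 arrays or on the scanner files, apart from the filter, which kept 42 of 42. With the sign of replicate 2 turned, 6 genes kept 1 sign, 1 (SELENOK) had an unadjusted p under 0.05, beside 5.04% of all genes, the median was -0.014, and GPX1 (0.11), GSS (-0.058), NQO1 (0.31) and TXN (-0.14) lay across 0. The dye as a covariate left 2 genes at an unadjusted p under 0.05, beside 2.8% of all genes, and moved GCLC to 0.0070 and NFE2L2 to -0.032, and centring moved TXN to -0.00060. The scanner files left 2 at that level, beside 3.1%, and put GPX1 at 0.014 and TXN at -0.077. The mean over probes gave a median of -0.015. Array weights of 0.212, 0.588 and 8.01 rest almost wholly on replicate 3: 8539 probes and 19 of the 47 genes passed the adjusted threshold and 23 genes the unadjusted one (48.2% of all genes), with GPX1 at 0.14, NFE2L2 at -0.010 and TXN at -0.083. Leaving out 1 array gave 0 to 796 probes past the adjusted threshold, the 796 without replicate 1, where 1 of the 47 genes was among them; 24 to 36 genes of 1 sign on the 2 arrays left (34.0%, 48.7% and 62.0% of all genes without replicates 3, 2 and 1); 0 to 5 genes at an unadjusted p under 0.05 (5 without replicate 1, beside 16.0% of all genes, and 0 without replicates 2 and 3, beside 4.64% and 1.08%); medians of -0.031 to 0.036; and means of -0.099 to 0.11 for GCLC, -0.13 to 0.057 for GPX1, -0.0053 to 0.10 for GSS, -0.091 to 0.11 for NFE2L2, -0.81 to 0.015 for NQO1 and -0.10 to 0.063 for TXN. Added after seeing the data, the set without TXNL4A, TXNL4B, TXNDC9, TXNDC2, SELENOI and the AIFM genes had 15 of 40 genes of 1 sign, beside 22.4% of all genes. Turning replicate 1, also added then, gave 17 of 47, beside 39.6% of all genes. By construction these are the 17 with replicate 1 across 0 from the other arrays. The cause of these shifts was not tested. No paired analysis was possible because the main test is already over pairs, each array's ratio setting 1 frozen against 1 vitrified sample, and replicate numbers leave no further block to fit in 1 group of arrays.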
